A study of Mus musculus with 14 samples.

Results

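The PYHIN genes of the mouse encode intracellular proteins that carry a pyrin domain, a DNA-binding HIN domain or both, and 9 names of this family were looked up in a count table of 47937 genes: Ifi203, Ifi204, Ifi205, Ifi207, Ifi208, Ifi209, Ifi211, Mnda and Aim2. They matched 8 rows, because Mnda has no row of its own and the RefSeq gene table lists it as an older name of Ifi211. The genes were selected on measured values, namely their differences between trap supernatant, mast cell supernatant and untreated macrophages within each batch, so those values are given as a description. Counts of them called in fits over all genes stand beside the share of all genes called, and support nothing. All 8 genes passed the filter on low counts, which left 13061 genes.

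Poly(A) RNA was sequenced from wild-type (WT) bone marrow-derived macrophages, cells grown in culture from marrow precursors. Macrophages were given the supernatant of mast cell intracellular traps (trap supernatant, n = 3) or the supernatant of mast cells (mast cell supernatant, n = 5) for 3.5 h, or were left untreated (n = 6). The labels place the 14 libraries in 3 batches. Trap supernatant has 1 library in each batch, mast cell supernatant has 2, 1 and 2 libraries in batches 1, 2 and 3, and untreated cells have 2 in each. Nothing in the labels says whether libraries came from separate cultures or animals, so the spread between them may be technical.

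PYHIN proteins are known in macrophages as sensors of DNA in the cytosol and nucleus and as regulators of transcription. AIM2 binds double-stranded DNA and assembles an inflammasome with the adaptor ASC and caspase-1, whereas the IFI204 protein and its human counterpart IFI16 signal through STING to interferon genes. Interferon acts back on the family: type I interferon activates a transcription factor complex that binds the interferon-stimulated response element (ISRE) of its target promoters, and many PYHIN genes are themselves induced by interferon.

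The 8 genes lie in a single cluster on chromosome 1, where 14 PYHIN genes span 680.9 kb (GENCODE mouse release M21 on GRCm38). On the plus strand are Aim2 (ENSMUSG00000037860, chr1:173350879-173466040), Ifi209 (ENSMUSG00000043263, chr1:173630917-173647928) and Ifi208 (ENSMUSG00000066677, chr1:173673675-173698395). On the minus strand are Ifi207 (ENSMUSG00000073490, chr1:173723427-173741747), Ifi204 (ENSMUSG00000073489, chr1:173747293-173766943) and Ifi211 (ENSMUSG00000026536, chr1:173896345-173913046). Farther along the minus strand follow Ifi203 (ENSMUSG00000039997, chr1:173920407-173942672) and Ifi205 (ENSMUSG00000054203, chr1:174011998-174031810). All 8 are annotated as protein coding. Copies within the family are close enough to share reads: of the 50-base stretches in its annotated transcripts, Ifi211 shares 72.8% with another gene, mostly Ifi205, and Ifi209 shares 33.7%, mostly with Ifi214. The share is 18.6% to 20.8% in Ifi205, Ifi204 and Ifi208, 12.2% in Ifi203, 7.3% in Ifi207 and 0.6% in Aim2. How the counting treated such reads is not given in the sources used here, so the counts of Ifi211 and Ifi209 are the least certain, and those of Aim2 and Ifi207 the least affected.

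The promoters of the cluster are shown because most of them carry the same short element, a feature that played no part in choosing the genes. RefSeq promoters on GRCm38.p6, each 300 bases from 250 before to 50 after an annotated start, were at hand for 7 of the 8 genes and not for Ifi204. The ISRE pattern, GAAA followed by any 2 bases and a second GAAA, searched on both strands, was present for 5 of these 7 genes and in 3.44% of all 32851 promoters. Its commonest spelling in the cluster, GAAATCGAAA, was found in 16 of the 32851 promoters, and 7 of those 16 belong to PYHIN genes: Ifi208, Ifi207 and Ifi203 and, outside the 8 genes, Ifi206, Ifi214, Ifi213 and Mndal. With at most 1 mismatch, on the coding strand, the element was present for 6 of the 7 genes and in 0.691% of all promoters. The spelling was picked from these same promoters, so its excess here over all promoters was fixed in advance and supports nothing. Counts for the family are per gene, where a match in any of its promoters sufficed, and shares over all are per promoter. Below, each stretch is read 5′ to 3′ on the gene's own strand, with the element in capitals.
Ifi209: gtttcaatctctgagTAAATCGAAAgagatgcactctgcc
Ifi208: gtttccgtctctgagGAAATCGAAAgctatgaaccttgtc
Ifi207: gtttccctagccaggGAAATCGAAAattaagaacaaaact
Ifi211: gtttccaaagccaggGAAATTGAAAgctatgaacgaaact
Ifi203: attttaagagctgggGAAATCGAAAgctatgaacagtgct
Ifi205: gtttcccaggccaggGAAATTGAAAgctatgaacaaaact
Their positions are chr1:173630765-173630804 (plus strand) for Ifi209, chr1:173673592-173673631 (plus) for Ifi208, chr1:173741826-173741865 (minus) for Ifi207, chr1:173913059-173913098 (minus) for Ifi211, chr1:173942503-173942542 (minus) for Ifi203 and chr1:174031865-174031904 (minus) for Ifi205. Counted from 1 at its 5′ end, the element has the substitution G1T in Ifi209 and C6T in Ifi211 and Ifi205. Its first base stands at -35 in Ifi203, -37 in Ifi211, -41 in Ifi207, -58 in Ifi208, -79 in Ifi209 and -134 in Ifi205, relative to the annotated start. Neither the Aim2 promoter nor the other promoter of Ifi203 held a match with at most 1 mismatch. The pattern of the other interferon element, GAS (TTCNNNGAA, both strands, which does not overlap the ISRE letters), was present in 0 of the 7 genes and in 8.30% of all promoters. These matches describe the sequence and are not shown to be binding sites.

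Total counts ran from 12414738 to 16491536 in trap supernatant libraries, 11729073 to 16123421 in mast cell supernatant libraries and 13455686 to 22720419 in untreated libraries. Batches differed more than replicates did: within a group, the chi-square of the counts divided by its degrees of freedom was 1.82 to 15.2 for pairs of the same batch and 31.8 to 81.9 for pairs of different batches, the value of 15.2 being that of untreated replicate 3 against the other untreated library of batch 3. Lyz2, the lysozyme gene that marks macrophages, stood at 9983 to 10886 CPM (counts scaled to library size, with TMM normalisation) in all 5 libraries of batch 1 and at 4720 to 5205 CPM in the 4 of batch 2, but at 1 to 2 counts per library in the 5 of batch 3, in every group, although the labels give WT throughout. What else differs between the batches cannot be told apart from this. The other macrophage markers were present, and the summed level of the 8 markers was 7722 to 17465 CPM in trap supernatant, 7803 to 18421 CPM in mast cell supernatant and 7900 to 17454 CPM in untreated libraries. The 12 mast cell markers summed to 88.2, 777 and 2081 CPM in the trap supernatant libraries of batches 1, 2 and 3. In mast cell supernatant they summed to 85.7 and 114 CPM in batch 1, 1458 CPM in batch 2 and 299 and 237 CPM in batch 3, and in untreated libraries to 7.11 to 9.36 CPM, with Mcpt4, Tpsb2 and Tpsab1 at 0. Treated libraries thus held mast cell transcripts, and their part in the values below was not tested.

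Within the family, levels differed widely, and their order was nearly the same with and without treatment. Per length of exons, Ifi207 stood first, at 148 ± 53.1 RPKM in trap supernatant (SD, n = 3), 131 ± 33.7 RPKM in mast cell supernatant (n = 5) and 108 ± 22.2 RPKM in untreated cells (n = 6). In no group did its libraries overlap those of the next gene, and it took 53.0% of the summed CPM of the 8 genes, or 48.1% to 60.6% by library. Ifi211 and Ifi204 came next, at 40.1 ± 18.9 and 38.2 ± 15.9 RPKM in trap supernatant, 33.1 ± 13.1 and 30.3 ± 9.32 RPKM in mast cell supernatant, and 33.1 ± 8.20 and 28.2 ± 11.3 RPKM in untreated cells, and the 2 genes overlapped in each group. Ifi203 followed, at 19.7 ± 8.48 RPKM in trap supernatant, 14.1 ± 6.87 RPKM in mast cell supernatant and 17.6 ± 3.26 RPKM in untreated cells. Aim2 and Ifi209 changed places between groups and overlapped each other in all of them. Aim2 stood at 12.8 ± 1.78 RPKM in trap supernatant, 11.1 ± 1.85 RPKM in mast cell supernatant and 12.2 ± 1.29 RPKM in untreated cells, and Ifi209 at 14.4 ± 6.41 RPKM in trap supernatant, 9.76 ± 3.83 RPKM in mast cell supernatant and 10.2 ± 3.79 RPKM in untreated cells. Ifi205 stayed below both without overlap, at 3.58 ± 1.65 RPKM in trap supernatant, 2.22 ± 1.13 RPKM in mast cell supernatant and 2.73 ± 1.14 RPKM in untreated cells. Ifi208 was last, at 0.986 ± 0.720 RPKM in trap supernatant, 0.193 ± 0.0999 RPKM in mast cell supernatant and 0.408 ± 0.264 RPKM in untreated cells, and it overlapped Ifi205 in trap supernatant alone.

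**Figure D1:**
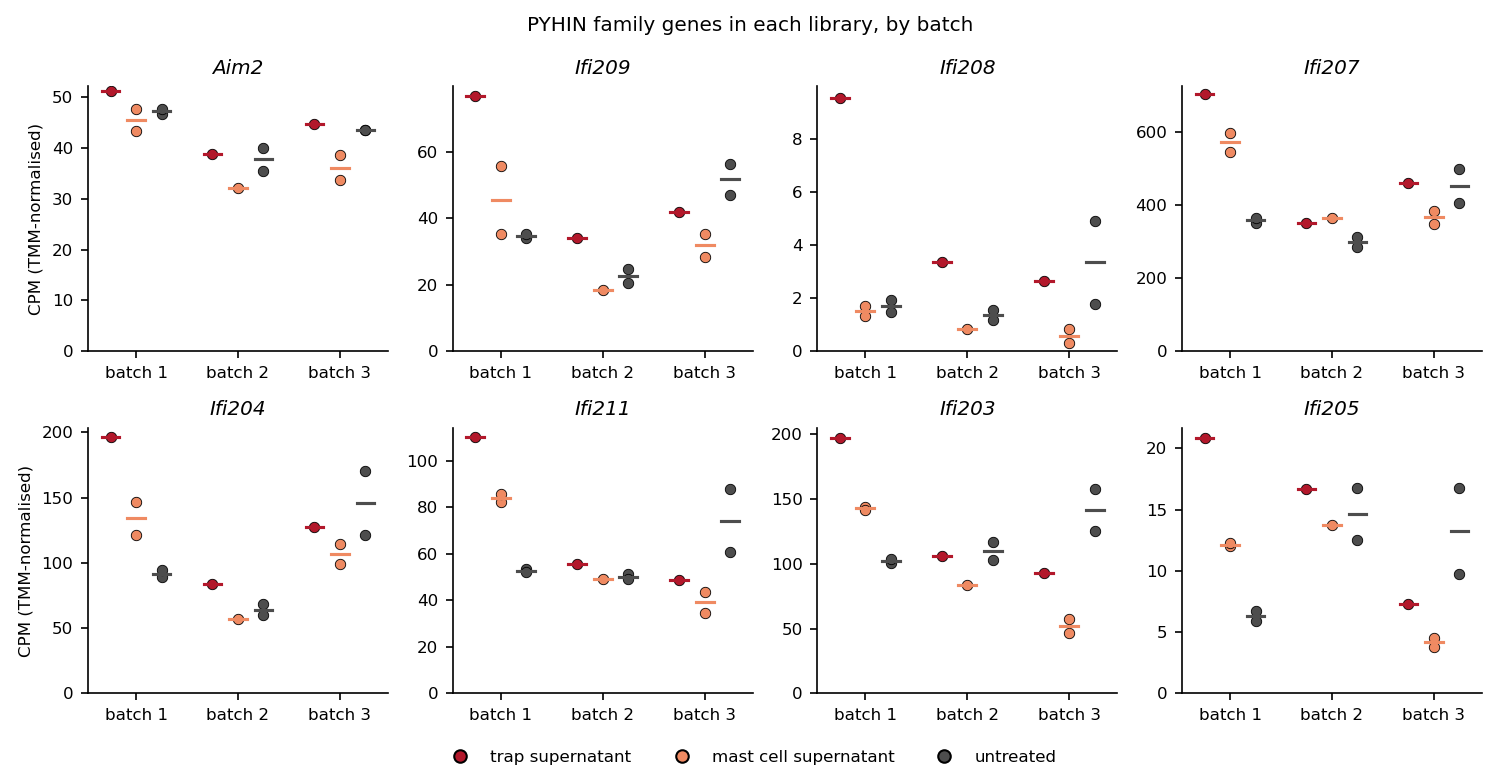
Level of each of the 8 PYHIN genes in every library, by batch. The vertical axes give CPM (TMM-normalised) from 0 on a scale of their own, points are libraries, short bars are means of a group in a batch, and in Ifi208 the trap supernatant points (9.54, 3.36 and 2.66 CPM) lie above all mast cell supernatant points of their batch.

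Aim2, the inflammasome sensor, was the steadiest of the 8 genes. It stood at 51.2, 38.7 and 44.6 CPM in the trap supernatant libraries of batches 1, 2 and 3. Mast cell supernatant gave 43.3 and 47.5 CPM in batch 1, 32.1 CPM in batch 2 and 33.6 and 38.6 CPM in batch 3, and untreated cells gave 35.3 to 47.6 CPM with a median of 43.5 CPM. The trap supernatant library was above the mast cell supernatant libraries of its batch each time, but by little: the log2 difference was 0.17, 0.27 and 0.31 in batches 1, 2 and 3. Against untreated cells the trap supernatant differences were 0.12, 0.04 and 0.04, and the mast cell supernatant differences -0.05, -0.23 and -0.27. After group and batch were fitted, its residual SD on the log2 scale was 0.09, against 0.41 for the median of the 8 genes.

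Ifi204, the sensor upstream of STING, varied far more between batches than Aim2 did. Trap supernatant gave 196, 84.1 and 128 CPM in batches 1, 2 and 3. Mast cell supernatant gave 147 and 121 CPM in batch 1, 57.1 CPM in batch 2 and 114 and 99.2 CPM in batch 3. Untreated cells gave 89.0 and 94.4 CPM in batch 1, 68.4 and 60.1 CPM in batch 2 and 170 and 121 CPM in batch 3. In batch 1 all trap and mast cell supernatant libraries were above the untreated ones, whereas in batch 3 both mast cell supernatant libraries were below them and the trap supernatant library lay between them.

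Ifi205, whose protein is known to control expression of the inflammasome adaptor ASC, and Ifi211, the mouse gene formerly called Mnda, shared their order of groups in batches 1 and 3. In batch 1 Ifi205 stood at 20.8 CPM in trap supernatant, 12 and 12.3 CPM in mast cell supernatant and 5.91 and 6.75 CPM in untreated cells. In batch 3 the order turned, with 7.34 CPM in trap supernatant, 4.50 and 3.81 CPM in mast cell supernatant and 16.8 and 9.76 CPM in untreated cells. Batch 2 gave 16.7 CPM in trap supernatant, 13.7 CPM in mast cell supernatant and 16.7 and 12.6 CPM in untreated cells. Its log2 differences from untreated cells, 0.20 with trap and -0.08 with mast cell supernatant, lay between those of batches 1 and 3. Its levels did not. For Ifi211 the values of batch 1 were 110 CPM in trap supernatant, 82.4 and 85.9 CPM in mast cell supernatant and 53.5 and 52.0 CPM in untreated cells, and those of batch 3 were 48.8 CPM in trap supernatant, 43.6 and 34.6 CPM in mast cell supernatant and 87.8 and 60.7 CPM in untreated cells. In batch 2 Ifi211 stood at 55.6 CPM in trap supernatant, 49.0 CPM in mast cell supernatant and 51.2 and 49.1 CPM in untreated cells. Both genes were thus highest in trap supernatant in batch 1 and in untreated cells in batch 3. Their untreated levels parted in batch 2: against batches 1 and 3 the log2 difference was 0.69 (SE 0.22) in Ifi205 and -0.31 (SE 0.13) in Ifi211. Since these 2 genes share sequence, reads of either may be counted for the other.

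Ifi203 and Ifi207, the most abundant genes by count beside Ifi204, parted in batch 3. For Ifi203, trap supernatant gave 197, 106 and 93.1 CPM in batches 1, 2 and 3. Mast cell supernatant gave 144 and 142 CPM, then 84.0 CPM, then 57.8 and 46.3 CPM, and untreated cells 100 and 104 CPM, then 117 and 103 CPM, then 158 and 125 CPM. The mast cell supernatant level in batch 3 was thus 0.368 times that of untreated cells, and the trap supernatant level 0.662 times. Ifi207 gave 706, 351 and 461 CPM in trap supernatant of batches 1, 2 and 3. Mast cell supernatant gave 546 and 600 CPM, then 365 CPM, then 349 and 386 CPM, and untreated cells 352 and 367 CPM, then 312 and 285 CPM, then 499 and 408 CPM. In batch 3 its trap supernatant level was 1.02 times and its mast cell supernatant level 0.814 times that of untreated cells. Ifi207 was also the only one of the 8 genes whose trap supernatant library lay below mast cell supernatant in any batch, by 0.06 on the log2 scale in batch 2.

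Ifi208, known also as Pydc3 after its pyrin domain, had the lowest level and the widest spread between trap and mast cell supernatant. It had 126, 60 and 33 counts, or 9.54, 3.36 and 2.66 CPM, in the trap supernatant libraries of batches 1, 2 and 3. Mast cell supernatant gave 22 and 14 counts in batch 1, 15 in batch 2 and 10 and 4 in batch 3, or 0.331 to 1.72 CPM. Untreated cells gave 1.17 to 4.93 CPM with a median of 1.67 CPM, and the highest value belonged to untreated replicate 3. Every trap supernatant library was above every mast cell supernatant library of any batch, and the log2 difference was 2.61, 1.89 and 2.18 in batches 1, 2 and 3. Ifi209, formerly Pyhin1, showed the same direction at a higher level: 76.8, 34.2 and 41.8 CPM in trap supernatant of batches 1, 2 and 3, 55.6 and 35.1 CPM, then 18.5 CPM, then 35.4 and 28.5 CPM in mast cell supernatant, and 20.6 to 56.4 CPM in untreated cells.

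In the comparison of trap with mast cell supernatant both groups had received material from mast cells, and here the 8 genes pointed the same way. The fitted log2 difference was above 0 in all 8, with a median of 0.49 beside 0.00 for all genes tested. Ifi208 had 2.37 (SE 0.53), Ifi209 0.68 (SE 0.26), Ifi205 0.64 (SE 0.48), Ifi203 0.53 (SE 0.34), Ifi204 0.45 (SE 0.23), Ifi211 0.32 (SE 0.31), Aim2 0.24 (SE 0.07) and Ifi207 0.21 (SE 0.19). With single libraries left out the median ran from 0.23, without trap supernatant replicate 1, to 0.65. Within batches it was 0.51, 0.31 and 0.36 in batches 1, 2 and 3. In bulk RNA a larger share of responding cells and more RNA per cell cannot be told apart. By edgeR's quasi-likelihood test, adjusted over all genes, 0 of the 8 were called, where 0% of all genes were called. At an unadjusted p under 0.05 the test found 3 of the 8 and 569 of all genes. DESeq2 called 1 of the 8, Ifi208, and 11 of all genes, and limma-voom called 0 of all genes. Ifi208 was also called by edgeR when only the libraries of the 2 groups were fitted and when batch 3 was left out (2.33 and 2.35 on the log2 scale). These fits called 22 and 1 of all genes.

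A trap supernatant library above every mast cell supernatant library of its batch, in all 3 batches, was seen for 7 of the 8 genes and for 5.93% of all genes, the exception being Ifi207. The same 7 genes met this under no TMM scaling and under RLE size factors. For the summed mast cell markers, trap supernatant stood within the mast cell supernatant values in batch 1 (88.2 beside 85.7 and 114 CPM). It stood below in batch 2 (777 beside 1458 CPM) and above in batch 3 (2081 beside 299 and 237 CPM). The part of mast cell transcripts in the order of the 8 genes was not tested. Since the genes were chosen with these contrasts in view, the count of 7 of the 8 genes is a description of them.

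**Figure D2:**
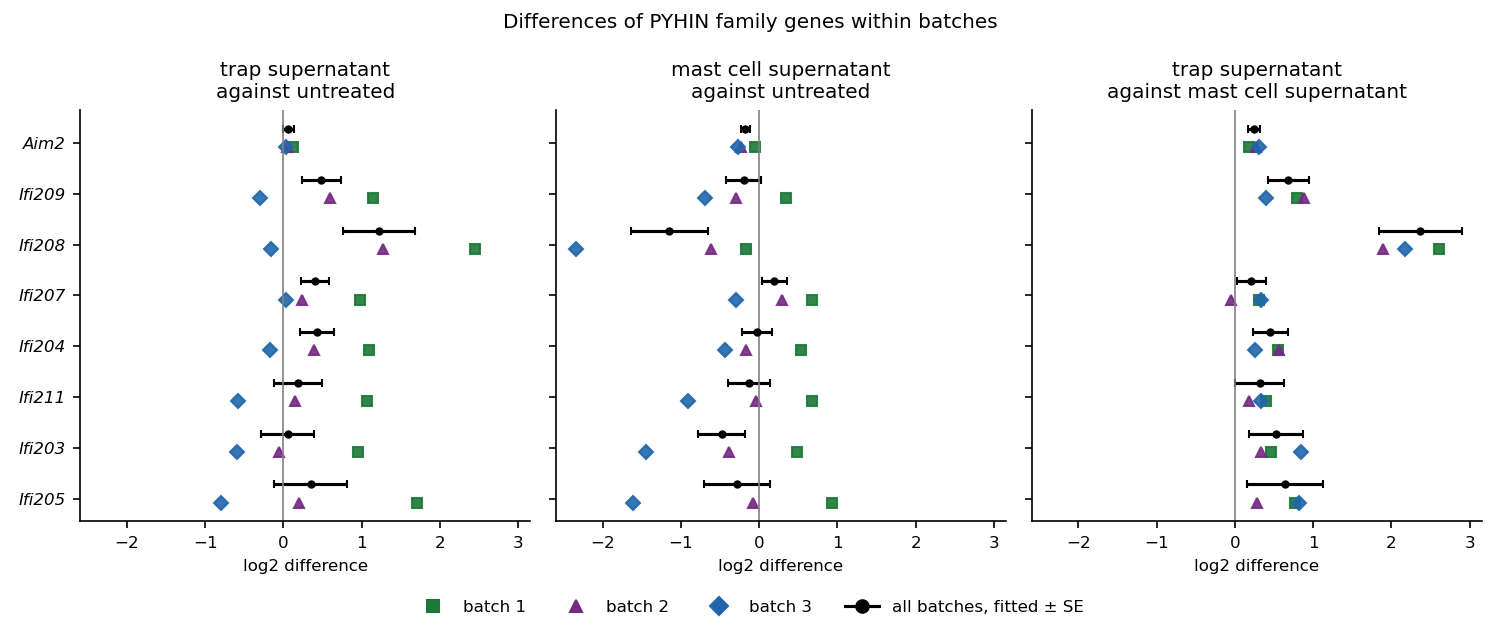
Log2 difference of the 8 PYHIN genes in each batch (coloured marks) and fitted over all batches (black, ± SE), for the 3 comparisons. Trap against mast cell supernatant lies to the right of 0 but for Ifi207 in batch 2, while both comparisons with untreated cells move from right to left between batches 1 and 3.

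Trap supernatant against untreated cells gave a difference that depended on the batch. The fitted log2 difference was above 0 in all 8 genes, with a median of 0.38 beside -0.01 for all genes, led by Ifi208 at 1.22 (SE 0.46). Ifi209 had 0.49 (SE 0.25), Ifi204 0.43 (SE 0.22), Ifi207 0.40 (SE 0.18) and Ifi205 0.35 (SE 0.46), while Ifi211, Aim2 and Ifi203 had 0.19 (SE 0.31), 0.06 (SE 0.07) and 0.05 (SE 0.34). By batch the median was 1.08, 0.22 and -0.24. In batch 1 the trap supernatant library was above both untreated libraries in 8 of 8 genes, in batch 2 in 5 of 8, and in batch 3 in 1 of 8 with 4 below both. The share of all genes in these positions was not counted, so these counts are a description and cannot be judged against it. By edgeR 0 of the 8 were called, where 1.72% of all genes were. At an unadjusted p under 0.05 the test found 1 of the 8 and 1666 of all genes. DESeq2 and limma-voom called 0 of the 8, beside 409 and 195 of all genes. The median of the 8 was 0.15 without trap supernatant replicate 1, 0.22 and 0.24 without untreated replicates 1 and 4, 0.079 without batch 1 and 0.69 without batch 3. Without untreated replicate 3 it was 0.55, and edgeR called 280 of all genes and Ifi208 among them, at 1.66 on the log2 scale (SE 0.30). Without batch 3 edgeR called 257 of all genes and Ifi208 among them, at 2.0 (SE 0.26). Without batch 1 the differences of Ifi211, Ifi203 and Ifi205 were below 0, at -0.23, -0.34 and -0.31.

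Mast cell supernatant against untreated cells had a fitted log2 difference below 0 in 7 of the 8 genes, with a median of -0.19 beside -0.01 for all genes. Ifi208 had -1.15 (SE 0.50), Ifi203 -0.48 (SE 0.30), Ifi205 -0.29 (SE 0.42), Ifi209 -0.20 (SE 0.22), Aim2 -0.18 (SE 0.06), Ifi211 -0.13 (SE 0.27) and Ifi204 -0.02 (SE 0.19), and Ifi207 had 0.19 (SE 0.16). The batches again differed, with medians of 0.51, -0.20 and -0.80 in batches 1, 2 and 3. In batch 1 mast cell supernatant was above all untreated libraries in 5 of 8 genes and in batch 3 below all of them in 8 of 8. The share of all genes was not counted for either batch alone, so these counts are a description. By edgeR 0 of the 8 were called, where 4.79% of all genes were. At an unadjusted p under 0.05 the test found 2 of the 8 and 2501 of all genes. DESeq2 and limma-voom called 0 of the 8, beside 884 and 623 of all genes. With no TMM scaling edgeR called 710 of all genes and Aim2 among them, at -0.21 (SE 0.06). Above in batch 1 and below in batch 3 held for 5 of the 8 genes, all but Aim2, Ifi209 and Ifi208, and for 8.93% of all genes. Without untreated replicate 3 the median of the 8 was -0.02, and the difference was above 0 in Ifi211 (0.08), Ifi205 (0.015) and Ifi204 (0.14). Without batch 3 it was above 0 in Ifi211 (0.37), Ifi203 (0.11), Ifi209 (0.14), Ifi205 (0.43) and Ifi204 (0.26). The 2 comparisons with untreated cells share the untreated libraries, so the turn between batches in one is not independent of that in the other.

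Summed over the 8 genes, the level was 1369 CPM in trap supernatant, 1039 CPM in mast cell supernatant and 696 CPM in untreated cells in batch 1. In batch 2 it was 690 CPM in trap supernatant, 620 CPM in mast cell supernatant and 599 CPM in untreated cells. In batch 3 it was 827 CPM in trap supernatant, 638 CPM in mast cell supernatant and 927 CPM in untreated cells. Trap supernatant stood above mast cell supernatant each time. In batch 2 the mast cell supernatant library lay between the 2 untreated libraries, at 632 and 567 CPM, and in batch 3 the trap supernatant library did, with untreated libraries at 1036 and 817 CPM.

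A test of whether the response to treatment differed between batches (the group-by-batch interaction in edgeR) called 4 of the 8 genes, Ifi203, Ifi205, Ifi207 and Ifi211, where 8.01% of all genes were called. With no filter on low counts it called 7 of the 8 and 1778 of 23931 genes. This fit has few residual degrees of freedom, and on simulated data a larger share of its calls was false than in the other tests. Because the genes were looked at within batches when they were chosen, this count too is a description.

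In the untreated libraries alone, PYHIN levels differed between batches. These libraries enter the comparisons on which the genes were selected, so the values below are a description too. In batch 3 against batch 1, 5 of the 8 genes were higher by edgeR's quasi-likelihood test, adjusted over all genes, and 10.7% of all genes were called. They were Ifi205, at 16.8 and 9.76 CPM in batch 3 against 5.91 and 6.75 CPM in batch 1 (log2 difference 1.05, SE 0.26), Ifi204 (0.65, SE 0.15), Ifi209 (0.56, SE 0.11), Ifi203 (0.46, SE 0.11) and Ifi207 (0.32, SE 0.09). Aim2 (-0.13, SE 0.09), Ifi211 (0.48, SE 0.15) and Ifi208 (0.96, SE 0.43) did not pass. The count over all genes also moved with single libraries, from 1397 genes to 333 and 332 without untreated replicates 1 and 4, where 0 of the 8 were called. It was 725 and 744 without replicates 2 and 5, with 1 of the 8, and 2551 without replicate 6, with 7 of the 8. Without replicate 3, the library that stood apart, it was 3833, with 5 of the 8, and the median log2 difference of the 8 was 0.24 beside 0.52 with it. A batch left with 1 library is assumed in these fits to vary like the others. DESeq2 called 6 of the 8 and 941 of all genes, and limma-voom 4 of the 8 and 1433 of all genes.

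Batch 2 had the lowest untreated level of most PYHIN genes. Against batches 1 and 3 together, 4 of the 8 were lower in batch 2 and 1 was higher by the same test, where 33.4% of all genes were called. Ifi209 was lower, at 24.8 and 20.6 CPM in batch 2 against 34.0 to 56.4 CPM in the others (-0.89, SE 0.11), as were Ifi204 (-0.84, SE 0.14), Ifi207 (-0.42, SE 0.08) and Aim2 (-0.25, SE 0.08). Ifi205 was higher (0.69, SE 0.22). Without untreated replicate 1 or 4 the test called 3 of the 8, and 3018 and 3024 of all genes. Without replicate 5 it called 2 of the 8 and 1989 of all genes, and without replicate 6 it called 8 of the 8 and 5739 of all genes. DESeq2 called 4 of the 8 and 3379 of all genes, and limma-voom 5 of the 8 and 4321 of all genes. The batches also differed in Lyz2 (above) and in neutrophil markers, whose sum over 11 genes was 93.0 and 111 CPM in the untreated libraries of batch 2, 318 and 327 CPM in batch 3 and 130 and 129 CPM in batch 1. Their part in the differences between batches was not tested.

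The cluster holds 6 other PYHIN genes, and those that could be tested pointed the same way in trap against mast cell supernatant. Of the 6, Ifi202b (9 counts over the trap supernatant, 16 over the mast cell supernatant and 19 over the untreated libraries) and Ifi214 (18 over the trap supernatant, 16 over the mast cell supernatant and 36 over the untreated libraries) were too low to test. The 4 tested genes had trap against mast cell supernatant differences of 1.35 (SE 0.48) in Ifi206, 1.20 (SE 0.52) in Ifi213, 0.68 (SE 0.32) in the pseudogene Ifi203-ps and 0.36 (SE 0.21) in Mndal. None of the 4 was called by edgeR, 3 had an unadjusted p under 0.05, and neither DESeq2 nor limma-voom called any. Each of them was above mast cell supernatant in all 3 batches. Of their 50-base stretches, Ifi203-ps shares 26.3% with another gene, mostly Ifi203, and Ifi213 15.6%, mostly with Ifi208. The share is 25.6% in Ifi206 and 19.6% in Mndal. Ifi203-ps averaged 1.93 to 2.94 CPM by group, beside 94.8 to 132 CPM for Ifi203. Reads of the listed genes may be counted for these 4, which are thus not separate support. Ifi213, whose 40-base element window is the same as that of Ifi208, gave 14.8, 4.31 and 4.27 CPM in trap supernatant, means of 5.62, 1.77 and 2.61 CPM in mast cell supernatant and means of 3.53, 2.48 and 7.73 CPM in untreated cells of batches 1, 2 and 3. Ifi203 and Mndal likewise share the same element window.

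**Figure D3:**
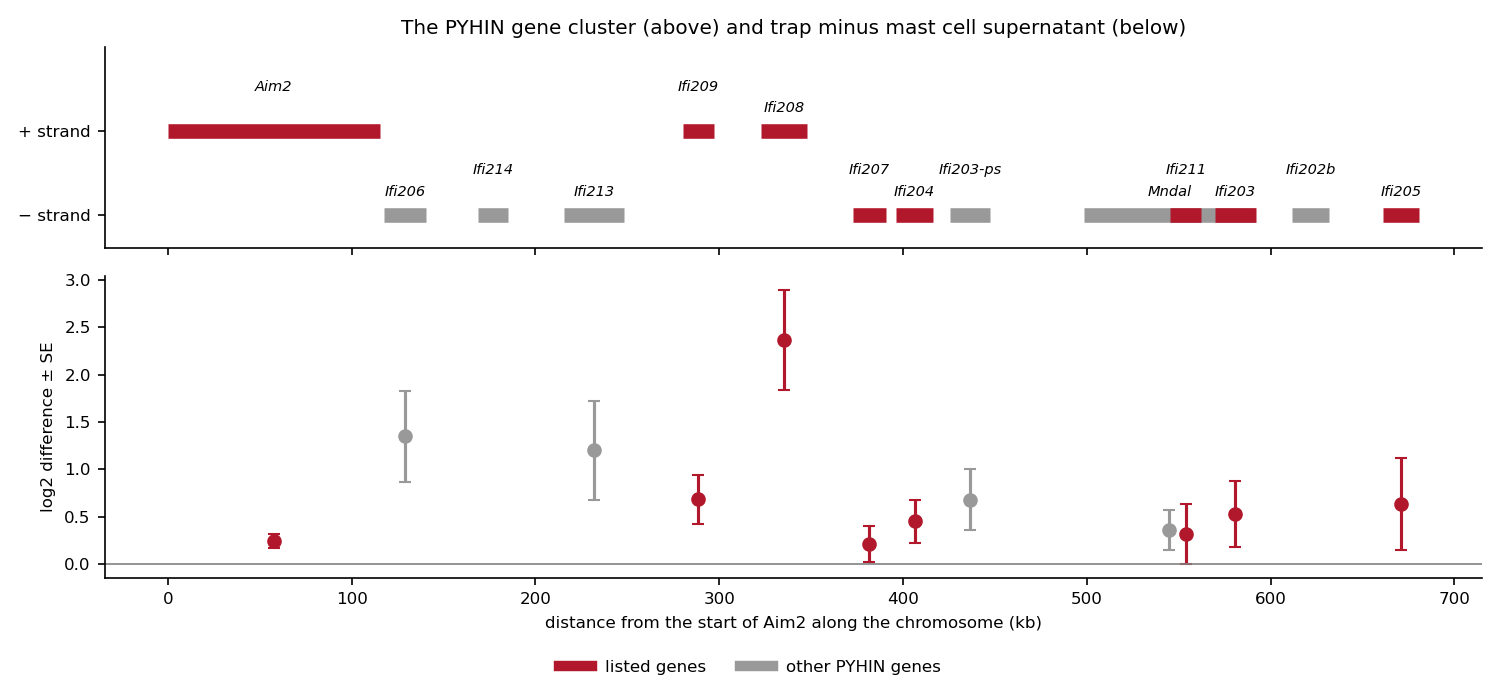
The PYHIN cluster to scale (above, horizontal axis in kb from the start of Aim2; both strands) and the fitted log2 difference of trap against mast cell supernatant for each tested gene at its midpoint (below, ± SE). The 8 listed genes and the 4 other tested PYHIN genes all lie above 0, from 0.21 in Ifi207 to 2.37 in Ifi208.

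Genes outside the family lie beside the cluster, across its edge and within it. Beside it, trap against mast cell supernatant gave 0.14 (SE 0.11) in Slamf8, -0.01 (SE 0.14) in Dusp23 and -0.14 (SE 0.07) in Fh1, with 0.76 in Slamf8 and 0.44 in Dusp23 in batch 2. Fcer1a is the mast cell gene of the high-affinity IgE receptor and had 1.29 (SE 0.57), with 0.37, -0.58 and 3.10 in batches 1, 2 and 3. Cadm3, a cell adhesion gene on the minus strand, crosses the edge of the cluster and overlaps the span of Aim2. It had 1.02 (SE 0.60), with -1.52, -0.31 and 2.47 by batch. Within the cluster, Gm18445 had 0.34 (SE 0.40), with -0.42, 0.40 and 1.69. Against untreated cells edgeR called Cadm3, at a mean of 0.518 CPM over the libraries, with trap supernatant (5.02, SE 0.85, adjusted p = 0.00594) and with mast cell supernatant (3.99, SE 0.90, adjusted p = 0.0167). Cadm3 and Gm18445 were named after their values were seen. No test of the family against its neighbours was made.

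Interferon-stimulated genes, the textbook output of the pathway that induces PYHIN genes, were listed beside them. Of 25 listed genes, all tested, 24 had a trap against mast cell supernatant difference above 0, with a median of 0.87 beside 0.00 for all genes. Ifit1, which binds foreign RNA, had 1.93 (SE 0.51), Rsad2, the antiviral enzyme viperin, 1.83 (SE 0.58) and the antiviral GTPase Mx2 1.79 (SE 0.42). None was called by edgeR, 16 had an unadjusted p under 0.05, DESeq2 called 2 and limma-voom 0. The median by batch was 0.95, 1.38 and 0.32 in batches 1, 2 and 3. Against untreated cells the medians for trap supernatant were 1.15, 0.63 and -0.52 in batches 1, 2 and 3, and for mast cell supernatant 0.36, -0.64 and -0.89. In these 2 comparisons edgeR called 0 of the 25, with 1 and 2 at an unadjusted p under 0.05, and DESeq2 called 0 and 1.

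Of 16 listed genes that receive and relay the interferon signal, 15 were tested, and 14 of the 15 had a trap against mast cell supernatant difference above 0, with a median of 0.14. Usp18, a feedback inhibitor, had 1.18 (SE 0.47), and the transcription factor subunits Stat2 and Irf9 had 0.77 (SE 0.20) and 0.38 (SE 0.09). No gene was called by edgeR in this comparison, 3 had an unadjusted p under 0.05, DESeq2 called 1 and limma-voom 0. With mast cell supernatant against untreated cells, 2 of the 15 were lower and none higher by edgeR, 7 had an unadjusted p under 0.05, DESeq2 called 5 and limma-voom 2. Ifngr2, a chain of the interferon-gamma receptor, averaged 162 ± 6.90 CPM with mast cell supernatant and 194 ± 12.8 CPM untreated (n = 5 and 6, log2 difference -0.26, SE 0.05, adjusted p = 0.00382 by edgeR). Ifnar1, a chain of the type I interferon receptor, averaged 179 ± 14.6 CPM with mast cell supernatant and 221 ± 24.0 CPM untreated (-0.27, SE 0.05, adjusted p = 0.00433 by edgeR).

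Ifnb1, which encodes interferon-beta, was too low to test but its few reads were spread unevenly. It had 17, 6 and 0 counts in the trap supernatant libraries of batches 1, 2 and 3. Mast cell supernatant gave 7 and 10 counts in batch 1, 5 in batch 2 and 0 and 1 in batch 3, and the 6 untreated libraries gave 0 or 2 counts each.

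The partners of AIM2 and other sensors of cytosolic DNA had a median near 0 in trap against mast cell supernatant. Of 16 listed DNA sensing and inflammasome genes, 15 were tested, and the exonuclease gene Trex1 had 0 counts in all libraries. Whether reads of Trex1 were missed in the counting was not tested. Trap against mast cell supernatant was above 0 in 7 of the 15, with a median of -0.01, and the median by batch was 0.01, 0.06 and 0.00. The largest differences were 0.52 (SE 0.35) in Zbp1, a sensor of Z-form nucleic acid, -0.42 (SE 0.63) in Il1b, the cytokine released by inflammasomes, and 0.24 (SE 0.15) in Cgas, the enzyme that makes the STING ligand. Against untreated cells Il1b had 1.47 (SE 0.67) with trap supernatant, at 2.85, 0.96 and 0.33 in batches 1, 2 and 3, and 1.89 (SE 0.60) with mast cell supernatant, at 3.57, 1.57 and -0.46. By edgeR 0 of the 15 were called in any of the 3 comparisons, with 0 at an unadjusted p under 0.05 for trap against mast cell supernatant, 0 for trap supernatant against untreated and 1 for mast cell supernatant against untreated. DESeq2 called none, and limma-voom called 1, in the last of these comparisons.

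**Figure D4:**
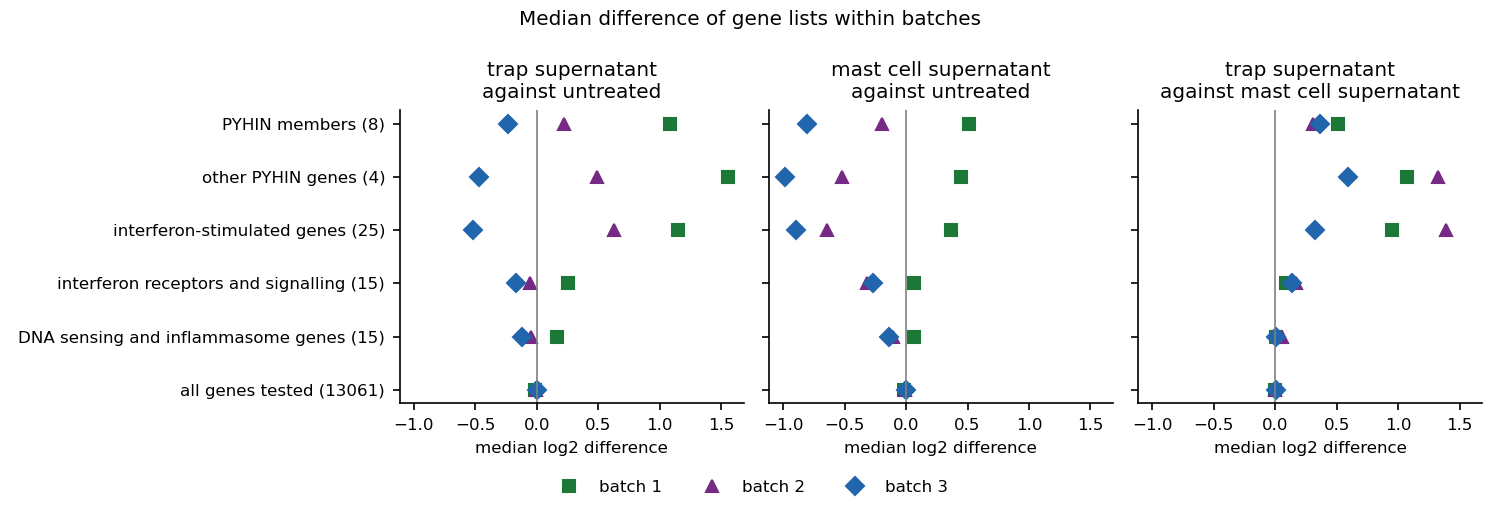
Median log2 difference of each gene list within each batch, for the 3 comparisons, with the number of genes in brackets. For trap against mast cell supernatant, the 8 PYHIN genes, the 4 other tested PYHIN genes and the 25 interferon-stimulated genes lie to the right of 0 in all batches. So do the interferon receptor and signalling genes, by less (0.08, 0.16 and 0.14 in batches 1, 2 and 3). The DNA sensing and inflammasome genes (0.01, 0.06 and 0.00) and all genes tested lie near 0.

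The profile of the family was compared with that of 9763 other genes, each averaging 5 CPM or more, by the root mean square difference of batch-centred log2 CPM over the 14 libraries from the mean of the 8 genes. The closest were Helz2 (0.12), Ifih1 (0.15), Oas1g (0.15), Ddx58 (0.15) and Herc6 (0.16). The mean profile itself lay 0.41 from a flat line. Of the 8 genes Ifi211 was nearest to their mean, at 0.14, and Ifi208 the farthest, at 0.68, with Aim2 at 0.34 and itself only 0.12 from a flat line. These distances are a description, and the libraries behind them share their batches.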

How the data were processed

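Poly(A) RNA of 14 macrophage libraries was measured. The authors deposited raw counts per gene, made with featureCounts 2.0.0 on GRCm38 per the submitters' processing notes. Per the labels' protocols the kit was stranded. Which aligner, annotation release and strand setting were used is not given in the sources used here. Counts were analysed with R 4.3.3 and edgeR 4.0.16: filterByExpr, TMM, robust quasi-likelihood fits of group and batch over all libraries, and Benjamini-Hochberg adjustment at 0.05 over all genes tested. Untreated libraries were fitted alone for batch. DESeq2 1.42.0, limma-voom (limma 3.58.1), other scalings and filters, and left-out libraries and batches were alternatives. The methods were tested on simulated data. Within a batch, differences were taken between group means of log2 CPM (prior count 1). RPKM used exon lengths of GENCODE mouse release M21.

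The members, lists and comparisons were chosen with earlier results of these data known. Named beside the members are all other PYHIN genes, the 3 nearest tested neighbours on each side, the 5 genes most like the members, and, per list, genes past the threshold or else the 3 with the largest trap against mast cell supernatant difference at a mean of at least 5 CPM. Some genes that this rule gives are not reported here. The pairing of replicates 1 to 3 comes from the batch labels, which follow these numbers. Deviations from group means, correlated over genes, gave r of 0.293 to 0.718 in the 9 pairs of equal number and -0.556 to 0.168 in the 18 other pairs. P-values measure the spread between libraries, which may be technical, and counts without molecular identifiers carry counting error only in part.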

Additional observations from a re-analysis of the deposited data

Results flagged for a closer look

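In 2 of the 16 gene and group combinations of 4 to 10 libraries, a single library lay far from the rest, and chance flags about 1 in 20 groups of like libraries. That share does not apply as it stands, since each group spans 3 batches and the batches differ. Both times it was untreated replicate 3 of batch 3: Ifi208 stood at 4.93 CPM there and at 1.17 to 1.92 CPM in the other untreated libraries, and Ifi211 stood at 87.8 CPM and at 49.1 to 60.7 CPM in the others, with 60.7 CPM in the other untreated library of batch 3. The response to treatment differed between batches by edgeR's interaction test in Ifi203 (adjusted p = 1.58e-05), Ifi207 (adjusted p = 0.000286), Ifi205 (adjusted p = 0.000698) and Ifi211 (adjusted p = 0.00168). The genes had been chosen with their values within batches in view, the fit has few residual degrees of freedom, and on simulated data a larger share of its calls was false than in the other tests, so these p-values describe them and are no independent evidence.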

How the results depend on the processing

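Over 26 alternatives per comparison, trap against mast cell supernatant kept its sign in all 8 genes, with 0.01 to 0.31 in Ifi207 and 1.70 to 2.82 in Ifi208 as the ends. Signs against untreated cells changed for Ifi211, Ifi203 and Ifi205 with trap supernatant and for all but Aim2 and Ifi208 with mast cell supernatant, mostly when batch 1, batch 3 or single libraries were left out. Genes called numbered 0 in each treatment comparison, but 1 for trap supernatant against untreated without batch 3, and 0 to 1 with single libraries left out. It was 1 for mast cell supernatant against untreated with no TMM scaling, and 1 for trap against mast cell supernatant by DESeq2, with only the libraries compared, or without batch 3. The interaction count of 4, beside 1046 of 13061 genes, became 7 with no low-count filter, beside 1778 of 23931 genes. Leaving out single libraries changed this count among the 8 genes and among all genes alike. Between untreated batches the counts of 5 ran from 2 to 8 for batch 2 against batches 1 and 3 and from 0 to 7 for batch 3 against batch 1. The difference of Ifi203 in batch 2 against batches 1 and 3 was 0.017 with no TMM scaling, against -0.12, and the cause was not tested. A fit of the 9 libraries numbered 1 to 3 with the replicate number as a block called 0 of the 8 genes in each treatment comparison, with medians of 0.22, -0.24 and 0.43 for trap supernatant against untreated, mast cell supernatant against untreated and trap against mast cell supernatant, and gave -0.04 for Ifi203 in the first. The block changed no other sign. Depth limits Ifi208, which had 4 to 22 counts per mast cell supernatant library. With 1 trap supernatant library per batch, no spread within a batch is known for that group.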
